A study of Mus musculus with 6 samples.

Results

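Transcript levels of 34 genes commonly used as markers of vascular endothelium were followed in the proximal epididymis of busulfan-treated and control mice. They were taken by symbol from a list of endothelial markers, and all 34 were found among the 24346 genes of the deposited expression table. The tissue was IS-caput epididymis, the first stretch of the epididymal duct, of wild-type mice aged 12 weeks that had received busulfan (3 libraries) or the solvent dimethyl sulfoxide (DMSO, 3 libraries) by intraperitoneal injection. Busulfan is a DNA-alkylating drug that depletes testicular germ cells. Dose, strain and interval to collection are not stated in what was used here. Both groups were injected, and none of the 6 libraries came from an untreated mouse. Direct effects of the drug on vessels and effects of germ cell loss cannot be told apart in this design. No label ties a replicate to a mouse of its own, so p-values cover only the spread of these libraries, part of which may be technical.

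Endothelial cells line blood and lymphatic vessels. They are held together by junction proteins, take growth signals through receptors for vascular endothelial growth factor (VEGF) and angiopoietins, and keep their identity through transcription factors of the ETS and SOX families. The capillaries around the initial segment are known as a dense bed of fenestrated vessels, in which thin pores closed by a diaphragm let water and solutes pass. In tissue RNA, such markers report on endothelial cells only in part, since fewer cells of a type and less RNA per cell cannot be told apart.

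Values are the authors' normalized FPKM, in which sequenced fragments are divided by the size of the library and the length of the transcript, so levels of different genes are per length. Read from the spacing of low values, sequencing depth was roughly 11400000 to 13300000 fragments per library. The epithelial marker Epcam, an adhesion molecule, stood at 209, 215 and 208 FPKM in the busulfan libraries and at 240, 232 and 235 FPKM in the DMSO libraries, above each of the 34 genes, and the label of an epithelial duct was not contradicted. By level the endothelial genes were minor transcripts. Their summed level was 138 to 169 FPKM in the busulfan libraries and 306 to 336 FPKM in the DMSO libraries. Much of that sum was Cd34, Plvap and Egfl7. Without these genes it was 74.1 to 99.2 FPKM in the busulfan libraries and 148 to 170 FPKM in the DMSO libraries. No library had any of the 34 genes at 0.

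Most of the endothelial genes were lower after busulfan, and by very unequal amounts. Plvap, which builds the diaphragms of capillary fenestrae, and Esm1, a proteoglycan secreted by sprouting endothelium, each kept about 12% of the DMSO level, whereas the secreted factor Egfl7 kept 97.1%. Of the 34 genes, 32 had a mean of at least 1 FPKM and were tested with limma, with Benjamini-Hochberg adjustment over all 12848 genes at that level. Lower levels in the busulfan libraries passed the adjusted threshold of 0.05 for 21 of the 32, and 11 did not pass. Across all tested genes, 22.1% were called lower and 20.8% higher. None of the 32 was called higher by limma, and none was higher at an unadjusted p under 0.05. On the log2(FPKM + 1) scale the 32 genes differed by a median of -0.59 (busulfan minus DMSO), against -0.0034 for all tested genes. That scale understates the change of low genes, and folds below are ratios of the group means in FPKM. When every gene with a value above 0 was tested, which brought in Nos3 and Tal1, 18 of 34 were called lower.

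Every busulfan library lay below every DMSO library for 23 of the 32 tested genes, and the reverse order occurred for none. Among all tested genes 27.7% had all busulfan libraries below and 26.9% had them above. The libraries of each group were not alike for these genes. Busulfan replicate 3 was the lowest busulfan library for 26 of the 34 genes (33.8% of all tested genes), and DMSO replicate 3 was the highest DMSO library for 23 of the 34 (34.2% of all tested genes). Without busulfan replicate 3 the median change was -0.51 with 19 genes lower, and without DMSO replicate 3 it was -0.48 with 18 lower.

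**Figure D1:**
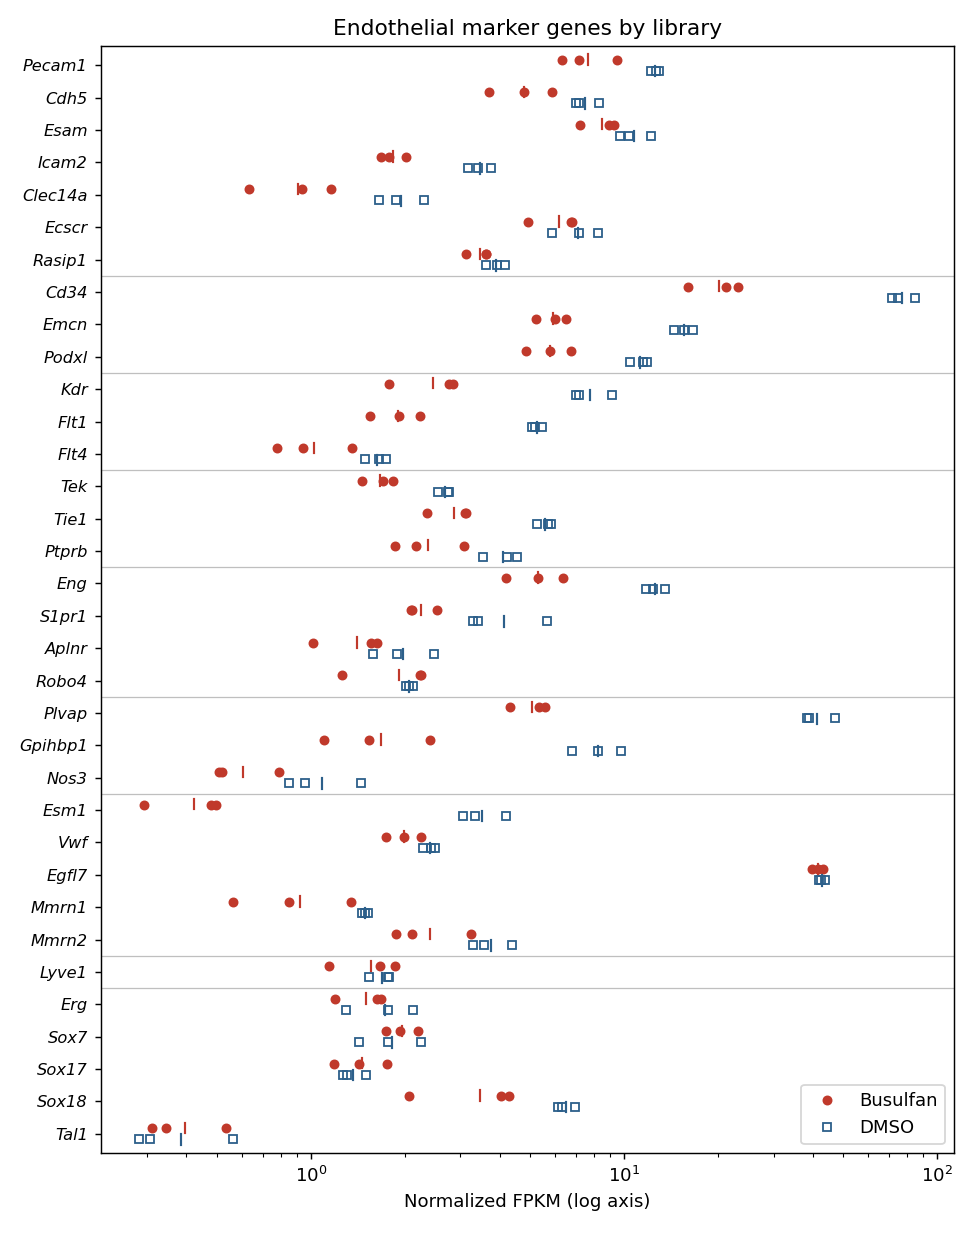
Level of each of the 34 endothelial genes in every library, in normalized FPKM on a log axis; filled circles are busulfan libraries, open squares DMSO libraries, and short vertical bars the group means (n = 3 each). Genes are arranged by role and divided by grey lines. Plvap, Cd34, Gpihbp1 and Esm1 show wide gaps between the groups, while the Egfl7 points coincide near 42 FPKM.

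The widest fold differences among the 34 were those of Esm1 and of the capillary genes Plvap and Gpihbp1. Plvap (NCBI gene 84094; chromosome 8, 71497765 to 71511752 on GRCm38) had 5.61, 5.36 and 4.305 FPKM in the busulfan libraries, against 46.95, 38.4 and 38.8 FPKM in the DMSO libraries. The groups lay far apart, with no busulfan library above 5.61 FPKM. The fall was 8.13-fold, a log2 change of -2.80 ± 0.11 (SE; limma adjusted p = 5.21e-07). Gpihbp1 (chromosome 15, 75596628 to 75599481), which anchors lipoprotein lipase to the capillary wall, had 2.404, 1.098 and 1.54 FPKM in the busulfan libraries and 8.24, 6.799 and 9.76 FPKM in the DMSO libraries. It fell 4.92-fold (log2 change -1.81 ± 0.18, adjusted p = 1.41e-04). The endothelial nitric oxide synthase gene Nos3 was below the level needed for testing. It had 0.7904, 0.518 and 0.509 FPKM in the busulfan libraries and 0.958, 0.851 and 1.45 FPKM in the DMSO libraries, without overlap.

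Esm1 (chromosome 13, 113209659 to 113218098) encodes endocan, a proteoglycan known from endothelial tip cells and from VEGF-stimulated endothelium. Its level was 0.293, 0.496 and 0.481 FPKM in the busulfan libraries and 3.35, 4.18 and 3.06 FPKM in the DMSO libraries, an 8.34-fold fall (log2 change -1.67 ± 0.13, adjusted p = 3.03e-05). With the rough depth above and the longest annotated transcript, the busulfan values rest on about 7 to 14 fragments per library and the DMSO values on about 85 to 113, so the fold is imprecise, although the groups did not overlap. The other secreted products moved less. Mmrn2, a matrix protein of the vessel wall, had 3.24, 2.101 and 1.87 FPKM in the busulfan libraries and 3.29, 3.56 and 4.38 FPKM in the DMSO libraries, a fall (adjusted p = 0.0365) that did not hold without busulfan replicate 2 or 3 or DMSO replicate 2 or 3 (adjusted p of 0.0774 to 0.121). The multimerin Mmrn1, found in platelets and lymphatic endothelium, averaged 0.919 ± 0.396 FPKM in the busulfan libraries and 1.49 ± 0.0322 FPKM in the DMSO libraries (SD, n = 3 each) and did not pass (adjusted p = 0.0768), except without busulfan replicate 1, at 0.0154. Von Willebrand factor, Vwf, which captures platelets, had 2.25, 1.99 and 1.73 FPKM in the busulfan libraries and 2.49, 2.29 and 2.42 FPKM in the DMSO libraries. These Vwf values did not overlap, but the difference did not pass (adjusted p = 0.167).

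Egfl7 (chromosome 2, 26580014 to 26593120), which encodes a secreted factor bound to the matrix around vessels, had 41.5, 39.7 and 43.2 FPKM in the busulfan libraries and 42.03, 43.7 and 42.4 FPKM in the DMSO libraries. The groups overlapped, with a log2 change of -0.04 ± 0.05 (adjusted p = 0.543). In the busulfan libraries Egfl7 was the most abundant of the 34 genes. The part of other cell types in the level of Egfl7 was not tested.

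The sialomucins are heavily glycosylated proteins of the luminal surface, and all 3 fell, against 22.1% of all tested genes called lower. Cd34 (chromosome 1, 194938819 to 194961279), which is made by capillary endothelium but also by fibroblasts and blood progenitors, had 23.1, 21.2 and 15.9 FPKM in the busulfan libraries and 71.7, 74.99 and 84.9 FPKM in the DMSO libraries. That was a 3.85-fold fall (log2 change -1.90 ± 0.13, adjusted p = 1.24e-05). Cd34 was the most abundant of the endothelial genes in the DMSO libraries. Endomucin, Emcn (chromosome 3, 137341067 to 137432185), a marker of capillaries and veins, had 6.501, 5.996 and 5.21 FPKM in the busulfan libraries and 15.5, 14.4 and 16.6 FPKM in the DMSO libraries, with narrow spread in both groups. It fell 2.63-fold (adjusted p = 1.51e-05). Podxl, a podocalyxin also made by some epithelia, had 6.79, 5.804 and 4.84 FPKM in the busulfan libraries and 10.4, 11.5 and 11.8 FPKM in the DMSO libraries (1.94-fold lower, adjusted p = 4.29e-04).

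The receptors for VEGF fell as well, with larger folds for the pair known from blood vessels. Kdr (chromosome 5, 75932827 to 75978458), the main signalling receptor for VEGF-A, had 2.83, 2.75 and 1.77 FPKM in the busulfan libraries and 7.04, 7.18 and 9.15 FPKM in the DMSO libraries. It kept 31.5% of the DMSO level (log2 change -1.36 ± 0.15, adjusted p = 1.90e-04). Flt1 (chromosome 5, 147561604 to 147726011), a high-affinity VEGF receptor that also acts as a trap for the ligand, had 2.24, 1.91 and 1.54 FPKM in the busulfan libraries and 5.09, 5.17 and 5.48 FPKM in the DMSO libraries and kept 36.1% (adjusted p = 8.34e-05). For both receptors the groups were well apart. Flt4, the VEGF-C receptor best known from lymphatic vessels, averaged 1.02 ± 0.295 FPKM in the busulfan libraries and 1.62 ± 0.131 FPKM in the DMSO libraries. Its call sat at the threshold (adjusted p = 0.04901) and was lost without any 1 library except busulfan replicate 1 (adjusted p of 0.0735 to 0.124).

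The angiopoietin receptor Tek, its relative Tie1 and the phosphatase Ptprb, which acts on the TEK protein and on VE-cadherin, were each lower. Tie1 had 3.11, 3.12 and 2.35 FPKM in the busulfan libraries and 5.25, 5.69 and 5.82 FPKM in the DMSO libraries (1.95-fold lower, adjusted p = 5.31e-04). Tek had 1.702, 1.45 and 1.82 FPKM in the busulfan libraries and 2.76, 2.54 and 2.74 FPKM in the DMSO libraries (1.62-fold lower, adjusted p = 0.0055). Ptprb averaged 2.37 ± 0.634 FPKM in the busulfan libraries and 4.11 ± 0.525 FPKM in the DMSO libraries (adjusted p = 0.00997). In none of these genes did the groups overlap.

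Of the 4 remaining receptors, 2 fell, against 22.1% of all tested genes called lower. Eng (chromosome 2, 32646595 to 32682669), the endoglin co-receptor for ligands of the transforming growth factor β family, had 6.39, 5.33 and 4.19 FPKM in the busulfan libraries and 12.4, 11.7 and 13.5 FPKM in the DMSO libraries, a 2.37-fold fall (adjusted p = 2.21e-04). S1pr1, the sphingosine-1-phosphate receptor that steadies the endothelial barrier, had 2.53, 2.11 and 2.09 FPKM in the busulfan libraries and 3.42, 3.29 and 5.69 FPKM in the DMSO libraries (adjusted p = 0.0175; 0.0589 without busulfan replicate 2). The third DMSO library stood well above the others for this gene. The apelin receptor Aplnr, at 1.56, 1.62 and 1.01 FPKM in the busulfan libraries and 1.57, 1.88 and 2.47 FPKM in the DMSO libraries, overlapped between the groups (adjusted p = 0.142). Robo4, an endothelial guidance receptor, had 2.24, 2.23 and 1.26 FPKM in the busulfan libraries and 2.06, 2.01 and 2.12 FPKM in the DMSO libraries (adjusted p = 0.648). Only busulfan replicate 3 was low for Robo4, and without it the log2 change was 0.08.

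Of the 7 junction and adhesion genes, 5 fell, against 22.1% of all tested genes called lower, and by smaller folds than Plvap and Gpihbp1. Cdh5 (chromosome 8, 104101625 to 104144511), the VE-cadherin of endothelial junctions, had 5.88, 4.78 and 3.71 FPKM in the busulfan libraries and 7.15, 7.03 and 8.33 FPKM in the DMSO libraries and kept 63.8% of the DMSO level (log2 change -0.57 ± 0.14, adjusted p = 0.0105). Pecam1, the junctional CD31, had 9.47, 7.18 and 6.34 FPKM in the busulfan libraries and 12.2, 12.9 and 12.6 FPKM in the DMSO libraries and kept 60.9% (adjusted p = 0.00282). In both genes the busulfan libraries were more spread out than the DMSO libraries. Icam2, an adhesion molecule for leukocytes, fell 1.897-fold to 1.82 ± 0.169 FPKM in the busulfan libraries, against 3.46 ± 0.2997 FPKM in the DMSO libraries (adjusted p = 9.54e-04). Clec14a, an endothelial lectin that binds the Mmrn2 protein, fell 2.13-fold to 0.907 ± 0.262 FPKM in the busulfan libraries, against 1.93 ± 0.327 FPKM in the DMSO libraries (adjusted p = 0.00898). Esam, a tight junction molecule of endothelium, averaged 8.48 ± 1.08 FPKM in the busulfan libraries and 10.7 ± 1.27 FPKM in the DMSO libraries, a fall at the threshold (adjusted p = 0.0488) that was lost without busulfan replicate 1 or 2 or DMSO replicate 1 or 3 (adjusted p of 0.0652 to 0.154). The groups overlapped for the remaining pair. Ecscr, a cell surface regulator of endothelial migration, averaged 6.18 ± 1.08 FPKM in the busulfan libraries and 7.12 ± 1.18 FPKM in the DMSO libraries (adjusted p = 0.3398). Rasip1, a junctional effector of small GTPases, averaged 3.46 ± 0.289 FPKM in the busulfan libraries and 3.896 ± 0.276 FPKM in the DMSO libraries (adjusted p = 0.249).

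Transcription factors of endothelial identity were at or below 6.98 FPKM in every library. Of the 4 tested, 1 fell, a share near the 22.1% of all tested genes called lower. Sox18, of the SOX family group that includes Sox7 and Sox17, had 4.04, 4.303 and 2.05 FPKM in the busulfan libraries and 6.98, 6.16 and 6.35 FPKM in the DMSO libraries (1.88-fold lower, adjusted p = 0.0119). Sox7 had 1.74, 1.92 and 2.196 FPKM in the busulfan libraries and 1.43, 1.76 and 2.24 FPKM in the DMSO libraries (adjusted p = 0.668). Sox17 had 1.75, 1.42 and 1.19 FPKM in the busulfan libraries and 1.26, 1.304 and 1.501 FPKM in the DMSO libraries (adjusted p = 0.763). Values of Sox7 and Sox17 thus overlapped between the groups, unlike those of Sox18. Erg, the ETS factor of mature endothelium, had 1.67, 1.19 and 1.63 FPKM in the busulfan libraries and 1.76, 1.298 and 2.11 FPKM in the DMSO libraries (adjusted p = 0.543). Tal1, a factor of blood and endothelial precursors, was below the level for testing, at 0.535, 0.344 and 0.311 FPKM in the busulfan libraries and 0.306, 0.283 and 0.565 FPKM in the DMSO libraries. Lyve1, a hyaluronan receptor of lymphatic vessels that some macrophages also carry, had 1.85, 1.66 and 1.14 FPKM in the busulfan libraries and 1.53, 1.77 and 1.77 FPKM in the DMSO libraries and overlapped too (adjusted p = 0.636).

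Upstream sequences are shown for Esm1, Cd34, Emcn and Kdr, which fell, and for Robo4, which did not pass, because ERG and other ETS factors bind a GGAA core in many endothelial promoters. RefSeq (GRCm38.p6) gave a promoter for 16 of the 34 genes. Each line gives the 250 bases before the RefSeq start, which can differ from the GENCODE start given above, 5′ to 3′ on the gene's strand, with GGAAG or its reverse complement CTTCC in capitals. The windows are chr13:113209409-113209658 (plus strand) for Esm1, chr1:194938571-194938820 (plus) for Cd34, chr3:137340828-137341077 (plus) for Emcn, chr5:75978456-75978705 (minus) for Kdr and chr9:37401722-37401971 (plus) for Robo4.
Esm1: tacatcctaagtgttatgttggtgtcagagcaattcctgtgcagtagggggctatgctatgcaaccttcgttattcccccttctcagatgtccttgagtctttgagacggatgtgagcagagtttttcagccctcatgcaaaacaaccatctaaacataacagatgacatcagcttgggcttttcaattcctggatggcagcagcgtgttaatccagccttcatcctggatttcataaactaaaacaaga
Cd34: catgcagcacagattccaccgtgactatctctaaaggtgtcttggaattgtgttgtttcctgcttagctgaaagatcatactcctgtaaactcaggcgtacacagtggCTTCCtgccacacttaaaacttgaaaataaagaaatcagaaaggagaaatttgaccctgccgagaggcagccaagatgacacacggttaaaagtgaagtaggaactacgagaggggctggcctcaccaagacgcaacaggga
Emcn: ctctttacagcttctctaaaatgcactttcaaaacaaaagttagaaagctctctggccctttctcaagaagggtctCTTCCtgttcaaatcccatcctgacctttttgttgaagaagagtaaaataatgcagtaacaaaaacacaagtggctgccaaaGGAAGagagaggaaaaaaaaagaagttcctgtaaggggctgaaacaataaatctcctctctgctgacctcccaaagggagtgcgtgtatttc
Kdr: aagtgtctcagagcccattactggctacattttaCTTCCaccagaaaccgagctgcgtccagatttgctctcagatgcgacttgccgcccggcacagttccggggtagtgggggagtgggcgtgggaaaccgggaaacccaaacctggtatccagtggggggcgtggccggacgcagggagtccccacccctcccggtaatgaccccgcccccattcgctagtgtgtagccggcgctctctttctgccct
Robo4: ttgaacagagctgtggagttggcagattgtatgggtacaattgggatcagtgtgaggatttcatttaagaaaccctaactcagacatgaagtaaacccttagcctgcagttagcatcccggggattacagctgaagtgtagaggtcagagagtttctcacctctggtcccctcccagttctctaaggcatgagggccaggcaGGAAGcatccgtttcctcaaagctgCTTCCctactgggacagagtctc
This 5-base motif occurred at 2 places in the windows of Emcn and Robo4, at 1 place in those of Cd34 and Kdr, and nowhere in that of Esm1. The shorter GGAA core, TTCC on the other strand, was not counted. It also stands unmarked in these windows, that of Esm1 included. Of the 10 genes called lower that had a promoter entry, 8 held it in at least 1 window, as did all 6 of the others. Each gene called lower had a single window, whereas Egfl7, Erg and Tal1 among the others had more than 1. Tal1 was also not tested, so these counts cannot be compared. Across start sites, 16 of 21 windows of the endothelial genes (76.2%) held it, against 64.1% of 32851 windows of all genes. These are letter matches and do not show binding.

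Whether single genes fell further than the endothelial genes in general was examined by subtracting the log2(FPKM + 1) of Cdh5 from that of every gene in the same library. Cdh5 is made by endothelium of all vessel types. Relative to Cdh5, 8 of the 31 other tested endothelial genes were lower, against 3.39% of all genes, 3 were higher, against 65.4% of all genes, and 20 did not pass (limma, adjusted p under 0.05). Since Cdh5 itself fell, a gene at a constant level counts as higher here. These 8 were Plvap, Cd34, Gpihbp1, Esm1, Kdr, Emcn, Eng and Flt1, which are also the 8 that had fallen by at least 1 on the log2(FPKM + 1) scale, as 3.39% of all tested genes had. The relative change of a gene is its own change minus that of Cdh5, so the match follows from the arithmetic and is no second result. Which genes pass a fall of 1 also depends on the pseudocount, since Clec14a changed by -0.62 on this scale and by -1.04 with a pseudocount of 0.1. The noise of Cdh5 enters each ratio and the pooled variance treats it as known, so the adjusted p-values given here are from a fit with the variance of each gene alone, added after the data were seen, under which 2.35% of all genes were lower.

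The FPKM ratio of Plvap to Cdh5 was 0.954, 1.12 and 1.16 in the busulfan libraries and 6.57, 5.46 and 4.66 in the DMSO libraries, a relative log2 change of -2.23 ± 0.15 (SE; adjusted p = 0.0165). The ratio of Cd34 was 3.93, 4.43 and 4.29 in the busulfan libraries and 10.03, 10.7 and 10.2 in the DMSO libraries (relative log2 change -1.34 ± 0.05, adjusted p = 0.006001). The ratio of Kdr was 0.481, 0.576 and 0.478 in the busulfan libraries and 0.984, 1.02 and 1.098 in the DMSO libraries (adjusted p = 0.0249). These ratios did not overlap between the groups, and those of Cd34 were nearly equal within each group. Emcn, Eng, Flt1 and Gpihbp1 also passed, with relative log2 changes of -0.69, -0.55, -0.55 and -1.24 and adjusted p-values of 0.0291, 0.01004, 0.0307 and 0.0339. Esm1 changed by -1.10 ± 0.27 relative to Cdh5 and did not pass with its own variance (adjusted p = 0.0519), although it did under the pooled variance. In the pooled fit the difference of Eng relative to Cdh5 was no longer called without busulfan replicate 2 (adjusted p = 0.0773) or without any 1 DMSO replicate (0.0523 to 0.0773). That of Flt1 relative to Cdh5 was no longer called without busulfan replicate 2 or DMSO replicate 1 or 2 (0.0798 to 0.0824). With Pecam1 or Tie1 in place of Cdh5, 8 genes were again lower.

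**Figure D2:**
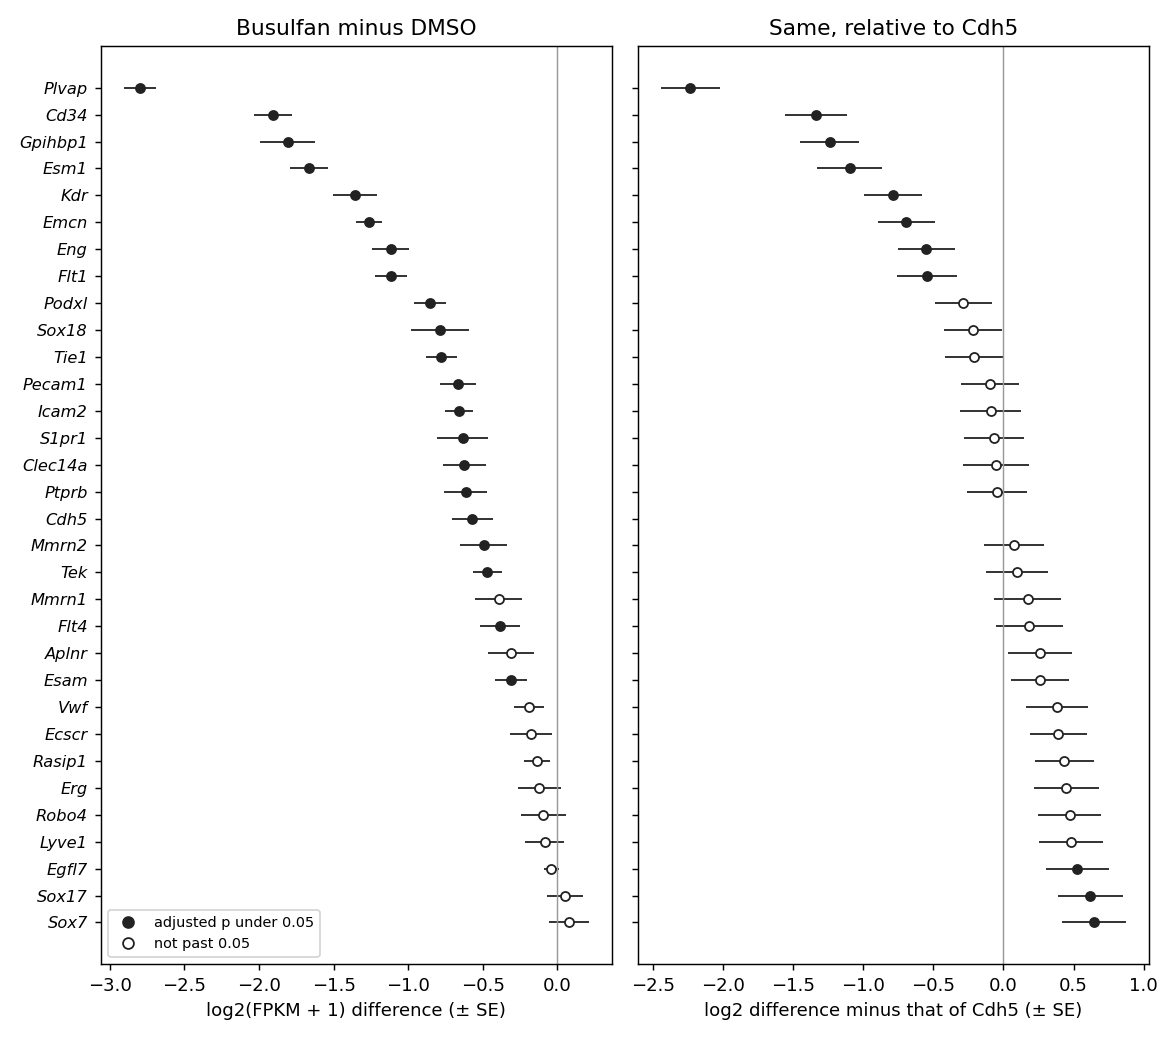
Left, difference in log2(FPKM + 1), busulfan minus DMSO, for the 32 tested endothelial genes; right, the same differences after subtracting that of Cdh5. Bars are standard errors from limma with pooled variance, and filled points have an adjusted p under 0.05. The 8 topmost genes, from Plvap to Flt1, are filled in both panels.

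Egfl7, Sox7 and Sox17 were higher relative to Cdh5 in the pooled fit (relative log2 changes of 0.53, 0.65 and 0.62). The ratio of Egfl7 to Cdh5 was 7.05, 8.31 and 11.7 in the busulfan libraries and 5.88, 6.21 and 5.09 in the DMSO libraries. With the variance of each gene alone, Sox17 passed (adjusted p = 0.0279), Egfl7 (0.0909) and Sox7 (0.0883) did not, and Lyve1 (0.0362) and Robo4 (0.0422) passed in their place. The number of endothelial genes higher relative to Cdh5 ranged from 0, without DMSO replicate 1, to 9, without busulfan replicate 1, so it rests on single libraries. A gene of low level whose FPKM fell by the same fold as Cdh5 appears higher on this scale by construction, through the pseudocount.

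**Figure D3:**
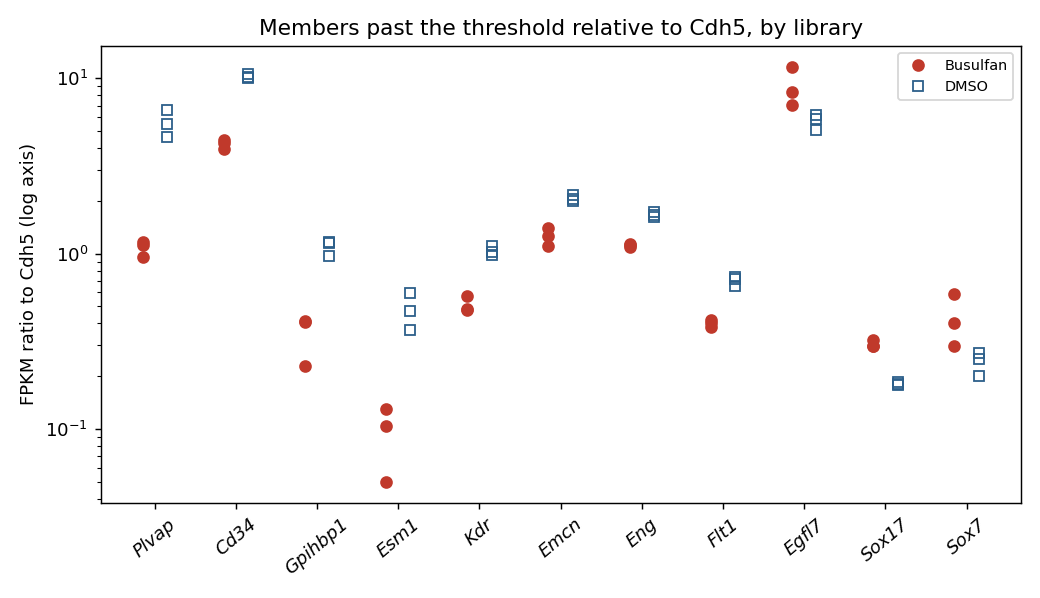
FPKM ratio to Cdh5 in every library for the 11 endothelial genes past the threshold relative to Cdh5 in the pooled fit, on a log axis; filled circles are busulfan libraries and open squares DMSO libraries. The ratio of Plvap lies at 0.954 to 1.16 in the busulfan libraries and at 4.66 to 6.57 in the DMSO libraries, and the last 3 genes run the other way.

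A second list of endothelial genes that shares none of the 34 was uneven as well. It was written with earlier results of these data known, so it is no independent check of the 34. Falls were called for 20 of its 46 tested genes and a rise for 1, against 22.1% lower and 20.8% higher among all tested genes, and the median difference was -0.29 on the log2 scale. The largest falls were those of Afap1l1, an actin-associated adaptor, with 4.39, 3.11 and 2.67 FPKM in the busulfan libraries and 14.99, 16.6 and 16.3 FPKM in the DMSO libraries (adjusted p = 1.31e-05), and of Palmd, which encodes palmdelphin, with 3.66, 3.88 and 3.298 FPKM in the busulfan libraries and 14.7, 15.4 and 17.4 FPKM in the DMSO libraries (adjusted p = 1.34e-06). The cell cycle regulator Rgcc fell 3.52-fold and the SOX factor gene Sox13 fell 2.68-fold (adjusted p = 1.08e-04 and 1.18e-05). In the DMSO libraries Afap1l1, Palmd and Sox13 averaged 15.96, 15.81 and 22.04 FPKM, above the 7.505 FPKM of Cdh5. The part of other cell types in the levels of these genes was not tested. The gene that rose, chosen for mention after its values were seen, was the receptor Notch1, which epithelia make as well, at 30.7 ± 1.44 FPKM in the busulfan libraries and 15.8 ± 1.47 FPKM in the DMSO libraries. Claudin 5, Cldn5, the tight junction protein of endothelium, also named after its values were seen, had 10.3, 8.91 and 6.78 FPKM in the busulfan libraries and 8.27, 8.95 and 12.8 FPKM in the DMSO libraries and did not pass (adjusted p = 0.445).

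Markers that divide endothelium by vessel type were compared next, against shares of 22.1% lower and 20.8% higher among all tested genes. Of 10 tested arterial genes, 1 fell and 3 rose (median log2 change -0.03), counts near those shares. The matrix protein gene Fbln5 fell 1.84-fold, the netrin receptor gene Unc5b rose 1.96-fold, the Notch ligand gene Jag2 rose 1.31-fold and the ephrin gene Efnb2 rose 1.23-fold, and none of these is made by arteries alone. Of the 6 that did not pass, only Dll4 had no overlap, at 73.8% of its DMSO level (limma adjusted p = 0.0988). Below the level for testing, Gja5 had 0.490, 0.398 and 0.171 FPKM in the busulfan libraries. It had 1.08, 0.802 and 0.534 FPKM in the DMSO libraries, without overlap, whereas Bmx overlapped. Dll4, Gja5 and Bmx were named after their values were seen. None of 4 tested venous genes passed in limma (median -0.20), and 2 of them had an unadjusted p under 0.05. The most abundant of them were Nr2f2, a nuclear receptor of veins and stroma, at 13.6 ± 1.896 FPKM in the busulfan libraries and 11.3 ± 1.08 FPKM in the DMSO libraries (adjusted p = 0.105, and 0.0164 without busulfan replicate 3), and the ephrin receptor Ephb4, at 5.43 ± 0.577 FPKM in the busulfan libraries and 6.39 ± 0.362 FPKM in the DMSO libraries. Of 8 tested lymphatic genes, 2 fell, Flt4 and Pdpn, and none rose (limma, and none was higher at an unadjusted p under 0.05 either, median -0.08). The share that fell was near that of all tested genes. The call of Flt4 held under 2 of 11 alternatives. Podoplanin, the product of Pdpn, is also made by stroma and epithelia, and the gene had 18.2 ± 0.708 FPKM in the busulfan libraries and 40.1 ± 1.69 FPKM in the DMSO libraries (adjusted p = 2.52e-06). Prox1, the defining transcription factor of lymphatic endothelium, was under 0.15 FPKM in each library, and the lymphatic chemokine gene Ccl21a, with 21.2, 18.4 and 15.03 FPKM in the busulfan libraries and 16.2, 16.6 and 20.96 FPKM in the DMSO libraries, overlapped between the groups. The choice of Prox1 and Ccl21a was made with their values known.

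Among ligands and co-receptors of vessel growth, 3 of 11 tested fell and 2 rose (median -0.26), near the shares of all tested genes (22.1% lower and 20.8% higher). Vegfa, the ligand of KDR and FLT1, had 20.7, 21.4 and 21.2 FPKM in the busulfan libraries and 33.9, 33.7 and 37.9 FPKM in the DMSO libraries (adjusted p = 4.34e-05). Figf, which encodes VEGF-D, fell 1.84-fold and the co-receptor gene Nrp1 fell 1.51-fold, while Pgf, which encodes placental growth factor, rose 1.62-fold to 35.8 ± 4.76 FPKM in the busulfan libraries, against 22.03 ± 1.42 FPKM in the DMSO libraries (adjusted p = 8.21e-04). The other gene that rose was Vegfb, a ligand of FLT1, at 15.8 ± 0.947 FPKM in the busulfan libraries and 13.8 ± 0.629 FPKM in the DMSO libraries (adjusted p = 0.0495), a call that held under 4 of 12 alternatives. The call for Nrp1 was lost without DMSO replicate 3 (adjusted p = 0.0546).

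Cells that accompany vessels were compared in the same libraries, against shares of 22.1% lower and 20.8% higher among all tested genes. Of 12 pericyte and mural genes, 1 fell and 2 rose, with a median log2 change of 0.06 and a summed level of 81.6 to 107.9 FPKM in the busulfan libraries and 87.3 to 102.0 FPKM in the DMSO libraries. Rgs5, a pericyte regulator of G protein signalling, fell 1.48-fold (adjusted p = 0.0312; 0.0661 to 0.099 without busulfan replicate 2 or 3 or DMSO replicate 2 or 3), Notch3, the Notch receptor of mural cells, rose 1.49-fold and the potassium channel gene Kcnj8 rose 1.34-fold (adjusted p = 0.0305; 0.0624 to 0.0953 without any 1 library except DMSO replicate 3). Of 10 smooth muscle genes 2 fell, Mylk (1.31-fold) and the visceral actin gene Actg2 (30.8-fold), with a median of 0.01. The share of smooth muscle genes that fell was near that of all tested genes. Fibroblast genes were lower in part in the same libraries. Of 12 tested, 7 fell and none rose (limma, and none was higher at an unadjusted p under 0.05), with a median of -0.64 and a summed level of 280 to 401 FPKM in the busulfan libraries and 457 to 575 FPKM in the DMSO libraries. The receptor gene Pdgfra, with 17.5, 17.4 and 14.7 FPKM in the busulfan libraries and 54.6, 63.5 and 65.4 FPKM in the DMSO libraries, fell 3.71-fold, the widest fall of the list. The collagen genes Col1a1 and Col3a1 and the stromal gene Pi16 fell 1.903-fold, 1.79-fold and 1.77-fold (Pi16 adjusted p = 0.0596 without DMSO replicate 1). The call of Dpt (limma adjusted p = 0.0488) held under 4 of 12 alternatives. Dcn, Lum, Fbln1, Postn and Col6a1, the 5 that did not pass, overlapped between the groups. Dcn, the most abundant gene of the list, kept 84.2% of its DMSO level (limma adjusted p = 0.162). Dpt and these 5 were named after their values were seen. No fibroblast marker of the list was at 0, and the part of fibroblasts in the level of Cd34 was not tested. Without Cd34, the summed level of the other 33 genes was 122 to 146 FPKM in the busulfan libraries and 231 to 251 FPKM in the DMSO libraries.

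Blood cell and epithelial genes were read against the same shares of all tested genes, 22.1% lower and 20.8% higher, and the blood cell counts were near them. Of 9 tested leukocyte genes 3 fell, among them Cd74 (1.65-fold), Cd68 rose (1.56-fold), and 5 did not pass. Their summed level was 114 to 152 FPKM in the busulfan libraries and 165 to 190 FPKM in the DMSO libraries. Much of that sum was Cd74, with 76.2, 71.3 and 54.2 FPKM in the busulfan libraries and 108.6, 100.6 and 123.9 FPKM in the DMSO libraries. The summed level thus largely follows this 1 gene. The other leukocyte falls, Itgam and Csf1r, were 1.64-fold and 1.29-fold, and were lost without single libraries, Itgam at adjusted p of 0.0508 to 0.071 without busulfan replicate 3 or DMSO replicate 1 or 2, and Csf1r without busulfan replicate 2 or 3 or DMSO replicate 2 or 3 (0.0633 to 0.0866). Of 5 tested erythroid and platelet genes, taken as markers of blood left in the vessels, the globin gene Hba-a1 fell to 37.4, 23.1 and 28.1 FPKM in the busulfan libraries, against 35.4, 54.6 and 87.9 FPKM in the DMSO libraries, with overlap (adjusted p = 0.0385, and 0.0831 to 0.127 without busulfan replicate 2 or 3 or DMSO replicate 2 or 3), and the platelet integrin gene Itga2b rose 1.28-fold. The other 3, Pf4, Alas2 and Hbb-bs, did not pass (limma adjusted p of 0.247, 0.965 and 0.293). The globin gene Hbb-bs had 9.27 FPKM in busulfan replicate 1 and at most 0.004643 FPKM in every other library, unlike Hba-a1. Of 12 epithelial genes 6 fell and 5 rose (median -0.03), and their summed level was 1550 to 1663 FPKM in the busulfan libraries and 1557 to 1577 FPKM in the DMSO libraries. Elf3, Pax2 and Krt5 rose 2.03-fold, 1.83-fold and 1.37-fold, and Pax8 fell to 66.7% of its DMSO level. The part of these cell types in the endothelial differences was not tested.

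**Figure D4:**
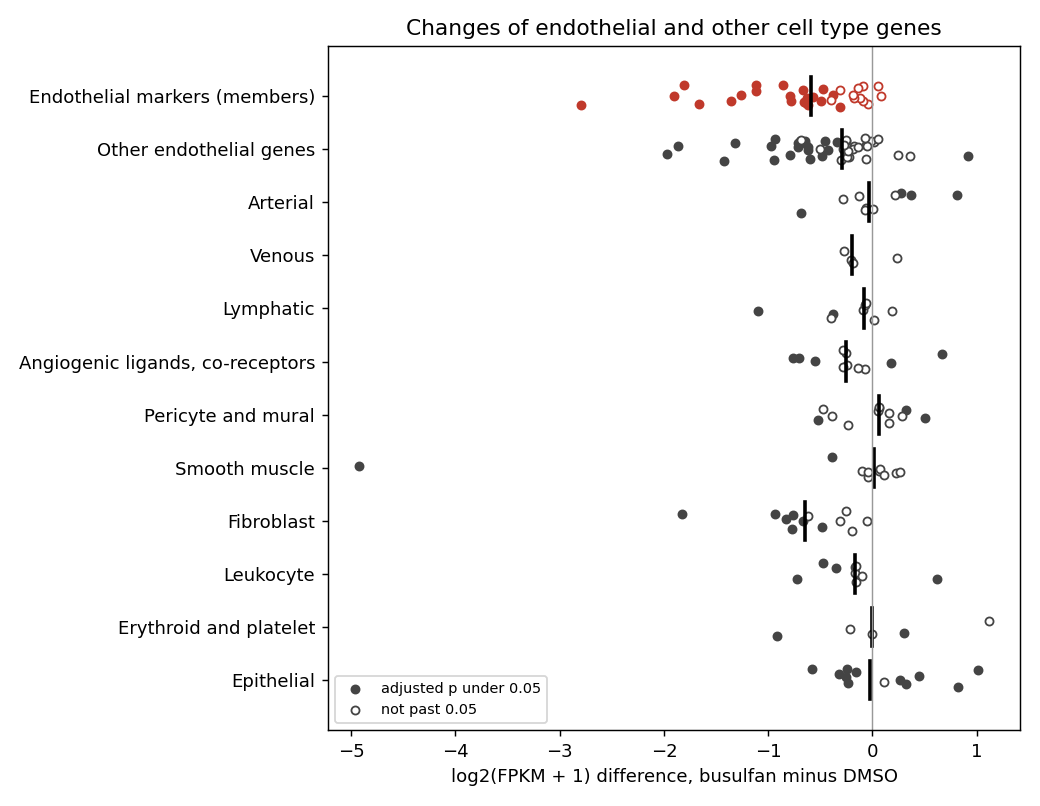
Difference in log2(FPKM + 1), busulfan minus DMSO, of each tested gene in the endothelial list (top, red) and in 11 further lists; each point is a gene, filled where the adjusted p was under 0.05, and the black bar is the median of the list. The medians of the endothelial and fibroblast lists lie at -0.59 and -0.64, while those of the pericyte and smooth muscle lists lie near 0.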

How the data were processed

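RNeasy extracts were made into stranded TruSeq mRNA libraries, per the labels' protocols. The authors deposited 1 table of normalized FPKM, per the file headers, with 24346 genes and 1 column per library. The submitters' processing notes list TopHat2 2.1.1, Cufflinks 2.2.1 and mm10 without saying what each was for. No source used here states the between-library normalization, the annotation or the strand setting. Because FPKM are relative to a library total, the loss of abundant transcripts can lift all other values.

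The 12848 genes whose FPKM averaged 1 or more entered a limma 3.58.1 fit (R 4.3.3) of log2(FPKM + 1), in which all 6 libraries entered and the variance could follow the mean. Benjamini-Hochberg adjustment ran over the same genes. Identical libraries were not found. The fit was tested on simulated data. Depth was estimated from the FPKM of single fragments in 65 to 77 long genes with 1 transcript, of which 14 to 30 marked the estimate. It is rough, and no count test was run. Whether equal replicate numbers pair libraries is not stated in what was used here. Correlations of deviations from the group means were -0.18, -0.025 and -0.175 for equal numbers. Deviations from a mean of 3 libraries depend on one another, so these values cannot show whether libraries were paired. Members, lists, roles and tests were chosen with earlier results of these data known. All 34 members are reported, and of each other list up to 4 genes past the threshold with the largest changes, or the 2 most abundant if none passed. Gene coordinates are from GENCODE M21 (GRCm38), matched by symbol, and promoters from RefSeq GRCm38.p6. Alternatives changed the pseudocount (0.1), the filter, the scaling, the libraries, the replicate block and the denominator gene.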

Additional observations from a re-analysis of the deposited data

How the results depend on the processing

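Raising the filter to a mean of 5 FPKM left 11 endothelial genes, with 9 lower, 5 lower and 1 higher relative to Cdh5, and 28 genes of the other lists lower; fewer genes were tested there. The number of endothelial genes lower was 17 to 21 on leaving out 1 library, 18 with every gene above 0 FPKM, 20 with a pseudocount of 0.1, quantile normalization or median-ratio scaling, and 19 without Cd34, Podxl, Lyve1, Sox17 and Tal1. Relative to Cdh5, 6 to 8 were lower and 0 to 9 higher on leaving out 1 library, and the number higher was 6 with every gene above 0 FPKM, 9 with Pecam1 and 13 with Tie1 as the denominator. With the replicate number as a block, 19 endothelial genes were lower, and relative to Cdh5 6 were lower and 0 higher. In 5 cases a log2 change that was not called turned sign. On leaving out 1 library, Robo4 ranged from -0.182 to 0.0784, Lyve1 from -0.171 to 0.0354 (both positive without busulfan replicate 3), Sox17 from -0.0328 (without busulfan replicate 1) to 0.132 and Sox7 from -0.0228 (without DMSO replicate 1) to 0.187. Egfl7 stood at 0.0583 after quantile normalization. Of 363 values of single endothelial genes under the alternatives, 335 kept direction and side of the threshold, 22 lost the call and 1 gained it. The calls lost were those of Esam, Flt4, Mmrn2 and S1pr1, and 17 of the 21 kept theirs throughout. Of 404 values of the named genes of other lists, 372 kept theirs, 31 lost it and 1 gained it, and the cause was not tested. Of 264 counts of genes called lower or higher in the other lists under the alternatives, 219 stayed equal or near and 45 moved further. The number of epithelial genes lower went from 6 to 2 under quantile normalization. Depth limits the low genes most, since Esm1, Gpihbp1 and Icam2 rest on few fragments in the busulfan libraries.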

Other observations

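Further genes of the second endothelial list, chosen here after their values were seen, differed in the same uneven way. The water channel gene Aqp1, which is also expressed outside endothelium, had 17.7, 17.03 and 13.1 FPKM in the busulfan libraries and 27.7, 27.5 and 29.2 FPKM in the DMSO libraries (limma adjusted p = 5.31e-04). The endothelin receptor gene Ednrb fell 2.65-fold (adjusted p = 7.35e-04), the Notch target Hey2 fell 1.97-fold (adjusted p = 6.83e-04) and Thbd, which encodes the anticoagulant thrombomodulin, fell 1.74-fold (adjusted p = 0.00809). The caveolin gene Cav1, made by many cell types, had 34.1, 35.2 and 27.5 FPKM in the busulfan libraries and 30.1, 31.9 and 35.6 FPKM in the DMSO libraries, and these overlapped (adjusted p = 0.9202). The leukocyte adhesion gene Icam1, which inflamed endothelium raises, had 7.11, 7.27 and 7.004 FPKM in the busulfan libraries and 6.82, 5.86 and 7.97 FPKM in the DMSO libraries (adjusted p = 0.703). The endothelial selectin gene Sele was at most 0.0307 FPKM in any library, and at 0 in DMSO replicates 1 and 2.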
